A study of Mus musculus with 16 samples.

Results

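The genes described here are the vascular endothelial growth factor (VEGF) family: the ligands Vegfa, Vegfb, Vegfc, Vegfd and Pgf, the receptors Flt1, Kdr and Flt4, and the co-receptors Nrp1 and Nrp2. All probe sets that the platform annotation gives to these 10 genes were taken, which gave 18 of the 22690 probe sets of the array. The genes were chosen by their symbols, but with earlier results of these data in view, so the same signals that are reported here had a part in the choice and the tests below are no independent support. They were measured on 16 Affymetrix arrays in 2 mouse lines labelled as small cell lung cancer, 3583T3 and 3151T4, which came from tumours dissociated with collagenase and trypsin and then plated. Of the 16 arrays, 4 were of cells with a retroviral Nfib vector (MSCV-Nfib-PGK-Neo, G418 selection, FLAG-tagged protein), 4 of cells with a Mycl1 vector (MSCV-L-myc-PGK-Puro, puromycin selection), 4 of cells with both vectors (Nfib+Mycl1) and 4 of untransfected control cells. Each of these 4 conditions had 2 arrays of 3583T3 (replicates 1 and 2) and 2 of 3151T4 (replicates 3 and 4), so there were 8 groups of 2 arrays. The control cells carried no vector and no selection, so vector, selection and transgene cannot be told apart in any comparison with control. The same holds for Nfib+Mycl1 against Mycl1, which adds the Nfib vector with its G418 selection. It also holds for Nfib+Mycl1 against Nfib, which adds the Mycl1 vector with its puromycin selection. Because no label calls the replicates separate cultures, a p-value here covers the variation among these arrays alone, and that may be technical.

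Vegfa acts through Flt1 and Kdr, the main receptor of blood vessel endothelium, while Vegfb and Pgf bind Flt1, which also exists as a soluble form that traps ligand. Vegfc and Vegfd bind Flt4, the receptor of lymphatic endothelium. Nrp1 and Nrp2 are co-receptors that the VEGF ligands share with the class 3 semaphorins, and tumour cells are known as a source of the ligands that draw in vessels. Nfib belongs to the nuclear factor I transcription factors and Mycl1 (current symbol Mycl) is a MYC family oncogene, both of them amplified in this tumour type, and the series asks what Nfib does in it.

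Signals are deposited GCRMA values on a log2 scale, so 1 unit is a 2-fold difference, and the 5th percentile of an array's signals was 1.94 in the median. Levels of different probe sets are not comparable. Changes are log2 differences ± SE from limma with n = 4 arrays per vector, and those with a p under 0.05 after Benjamini-Hochberg adjustment count as called, over the 15799 probe sets that exceeded log2 4 on at least 2 arrays. All 18 probe sets passed this filter. Of these, 1454037_a_at of Flt1 passed only through arrays with the Nfib vector, so its higher calls with that vector were favoured in advance. The counts below include it. In bulk RNA, fewer cells that express a gene and less RNA per cell cannot be told apart.

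On 2 arrays the Mycl probe set that reads the transgene (1422087_at) went against the label. It was at 9.08 to 10.82 on the 4 arrays labelled Mycl1 and at 2.24 to 2.47 on the 4 control arrays. It was at 10.22 on the array labelled 3583T3 Nfib replicate 2, although that label holds no Mycl1 vector, and at 2.67 on the one labelled 3583T3 Nfib+Mycl1 replicate 2. Both were kept as labelled, and results that change without them are also given without them. None of the 4 Nfib probe sets was higher with the Nfib vector; the brightest (1427680_a_at) averaged 10.23 with Nfib and 10.61 in control cells (-0.38 ± 0.13, adjusted p = 0.0894), so the arrays do not check that transgene. Of 16 arrays, 12 correlated best with the other array of their group.

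The vector cells and the control cells also differed in genes of other cell types. Leukocyte and macrophage genes were lower in vector cells: their summed log2 signal was 7.88 to 10.03 on the 12 vector arrays and 12.86 to 14.45 on the 4 control arrays. Of 16 such genes tested, 14, 15 and 15 were called lower with Nfib, Mycl1 and both vectors against control, and 0 of 16 in Nfib+Mycl1 against Mycl1 or against Nfib (limma). Of all probe sets tested, 8.46%, 9.96% and 29.0% were called in those comparisons with control. The share was 2.96% against Mycl1 and 15.3% against Nfib. Moreover, 1 of 3 Mycn probe sets (1425923_at) was at 12.19 to 13.26 on all 12 vector arrays and at 2.03 to 2.56 on the 4 control arrays. The other 2 did not share this rise. Probe set 1425922_a_at was at 2.94 to 3.42 on all 16 arrays. Probe set 1417155_at was at 2.81 to 4.93 on the vector arrays and at 3.31 to 5.39 on the control arrays. Of 16 endothelial genes, 9 never exceeded log2 4, among them Pecam1, Cdh5, Tek, Tie1 and Vwf. The other 7 did on some arrays: Egfl7 on 16 and Eng on 15, Esam on the 8 of 3583T3, Emcn and Ramp2 on 2, and Erg on 1. Plvap did on 5, all of them with the Nfib vector. Plvap and Erg were highest in 3151T4 with Nfib, where Flt1 was highest too: Plvap had 5.74 and 5.52 there, against 2.99 and 2.90 in 3151T4 control, and Erg 5.05 and 3.92, against 2.47 and 2.57. Other endothelial genes did not share this: Eng had 4.26 and 3.92 in 3151T4 with Nfib, against 4.54 and 4.47 in 3151T4 control. Egfl7 had 4.78 and 4.76, against 4.76 and 4.78, and Esam, Emcn and Ramp2 stayed under log2 4 on these arrays. Over both lines, Plvap was at 3.49 to 5.74 on the 8 arrays with the Nfib vector and at 2.71 to 3.17 on the 8 without it. Flt1 on 1451756_at split the same arrays without overlap, as given below. The part of endothelial cells in the Flt1 signal was not tested. The lymphatic genes Prox1 and Lyve1 never exceeded log2 4. The third, Pdpn, which other cells also express, was at 6.15 to 11.14 on all 16 arrays. Pdpn was called higher with Nfib in 3151T4 (1.64), lower with Mycl1 over both lines (-1.21) and higher with both vectors than with Mycl1 alone (1.66). Of 8 neuroendocrine genes of small cell lung cancer on the array, 4 never exceeded log2 4: Chga, Chgb, Syp and Neurod1. Ddc exceeded it on 8 arrays (1.42 to 10.71 over all 16) and Insm1 on 2. Ncam1 was at 11.52 to 12.37 and Uchl1 at 7.88 to 11.39 on all 16 arrays. Whether these differences have a part in the VEGF family results against control was not tested.

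The 250 bases before the RefSeq start of 3 genes are shown, because every probe set of Vegfd and Flt1 was called higher with Nfib and Pgf was called lower with every vector. They are given 5′ to 3′ along the gene, from RefSeq on GRCm38.p6: Vegfd at chrX:164373272-164373521 on the plus strand, Pgf at chr12:85177314-85177563 on the minus strand and Flt1 at chr5:147726012-147726261 on the minus strand. Capitals mark the half-site of the nuclear factor I family, TTGGC or its reverse complement GCCAA.
Vegfd promoter: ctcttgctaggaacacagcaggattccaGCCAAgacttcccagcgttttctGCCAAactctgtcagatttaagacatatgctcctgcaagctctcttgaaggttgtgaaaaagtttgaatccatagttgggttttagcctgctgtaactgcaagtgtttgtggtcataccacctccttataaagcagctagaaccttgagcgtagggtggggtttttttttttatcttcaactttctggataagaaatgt
Pgf promoter: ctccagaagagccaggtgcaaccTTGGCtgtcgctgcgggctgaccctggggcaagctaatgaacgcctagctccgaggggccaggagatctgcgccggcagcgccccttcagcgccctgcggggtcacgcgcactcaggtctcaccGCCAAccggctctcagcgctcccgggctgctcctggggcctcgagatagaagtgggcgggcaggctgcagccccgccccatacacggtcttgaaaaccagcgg
Flt1 promoter: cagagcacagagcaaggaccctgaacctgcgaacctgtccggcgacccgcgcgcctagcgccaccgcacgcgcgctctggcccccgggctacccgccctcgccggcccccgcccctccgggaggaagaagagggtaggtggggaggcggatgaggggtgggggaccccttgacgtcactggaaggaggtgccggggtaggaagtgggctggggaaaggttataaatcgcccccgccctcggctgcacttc
The Vegfd and Pgf windows each held 2 half-sites and the Flt1 window 0. A second annotated Pgf start held 1. On either strand the half-site was found in 41.5% of 32851 promoters of this length, and in 3 of the 12 promoters annotated for the family. The full palindromic site, which is the half-site and its reverse complement with 5 bases between, was in 0.0365% of all promoters and in 0 of 12, and the E-box CACGTG in 6.02% and in 0 of 12. The core ACGTG, which lies within the E-box, was in 16.6% of all promoters and in 1 of 12. That window, chr17:46025164-46025413, belongs to the annotated Vegfa start that lies further along the gene. The window of the other annotated Vegfa start, chr17:46032378-46032627, held 0. These matches describe letters only, and binding was not measured here.

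Cells with Nfib had more Vegfd, Flt1, Vegfc and, slightly, Nrp1 than control cells, and less Pgf. Vegfd was 15.2-fold higher on probe set 1438954_x_at and Flt1 11-fold higher on 1451756_at. In this comparison 8 of the 18 probe sets were called higher and 1 lower, while 8.46% of all probe sets tested were called in either direction; the median change was 0.45 for the family and 0.02 for all probe sets. Without the 2 arrays whose Mycl signal went against their label, 9 were higher and 1 lower.

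Cells with Mycl1 had less Vegfc, Pgf and Nrp1 than control cells. The falls were 1.97-fold for Vegfc, 2.08-fold for Pgf and 1.36-fold for 1 of the 3 Nrp1 probe sets. Of the 18 probe sets, 0 were called higher and 3 lower, against 9.96% of all probe sets tested in either direction, with a median change of -0.42 for the family and 0.04 for all probe sets. All 3 calls lay near the threshold (adjusted p from 0.0251 to 0.0485), and without the same 2 arrays there were 4, with 1 Flt4 probe set added.

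Cells with both vectors had more Flt1 and slightly more Vegfb than control cells, and less Vegfa, Pgf and Flt4. Here 4 probe sets were called higher and 4 lower, where 29.0% of all probe sets were called. The 3 comparisons with control share the same 4 control arrays, so their values are set side by side below and not compared by overlap. Against Mycl1 alone, both vectors gave 4 calls, all higher (Flt1 on 3 probe sets and Vegfc), where 2.96% of all probe sets were called. Against Nfib alone they gave 5 calls, all lower (Vegfd on 3 probe sets and Nrp1 on 2), where 15.3% were called. Without the same 2 arrays these counts were 8 against control, 5 against Mycl1 and 10 against Nfib, where both Flt4 probe sets, Vegfc, 1 Flt1 probe set and the third Nrp1 probe set were added.

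The 2 lines differed in every probe set of the family. Over all vectors, 8 probe sets were higher in 3583T3 than in 3151T4 and 10 lower, so 18 of 18 were called, where 58.1% of all probe sets were. Flt4, Vegfb, Vegfa, Kdr and 2 Vegfd probe sets were higher in 3583T3, and Nrp2, Vegfc, Flt1, Nrp1, Pgf and the third Vegfd probe set were lower. The Pgf difference (-0.45 ± 0.18, adjusted p = 0.0425) was the weakest, and its call ended without any of 10 arrays (-0.46 to -0.34): the 4 control arrays, both 3151T4 Nfib arrays, 3583T3 Nfib replicate 2, 3151T4 Mycl1 replicate 3, 3583T3 Nfib+Mycl1 replicate 1 or 3151T4 Nfib+Mycl1 replicate 4. Without the 2 arrays whose Mycl signal went against their label, 17 were called, and 1454037_a_at of Flt1 was not (-0.76, adjusted p = 0.0691).

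The lines also answered differently to the vectors. With Nfib against control, 7 probe sets were called higher and 2 lower in 3583T3, where 8.23% of all probe sets were called, and 9 higher and 2 lower in 3151T4, where 11.8% were. The test of the difference between these responses called 4 probe sets (3 of Flt1 and 1 of Vegfd), against 5.61% of all. With Mycl1 against control, limma called 0 of the 18 probe sets in 3583T3, where 2.39% of all probe sets were called; 5 of them had an unadjusted p under 0.05, and the smallest adjusted p was 0.0847. It called 4 there with the 2 arrays whose Mycl signal went against their label left out (1 Vegfd probe set higher; Vegfc and both Flt4 probe sets lower), and 2 when only the arrays of the 2 conditions were fitted. In 3151T4 it called 8, all lower, where 15.1% were called, and the responses differed between lines for 3 probe sets, all of Vegfd, against 1.43% of all. With both vectors against control, 7 were higher and 1 lower in 3583T3 (11.1% of all probe sets called), 4 were higher and 2 lower in 3151T4 (28.1%), and the responses differed for 5 probe sets, of Vegfd (2), Vegfc, Pgf and Flt1 (4.94%).

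**Figure D1:**
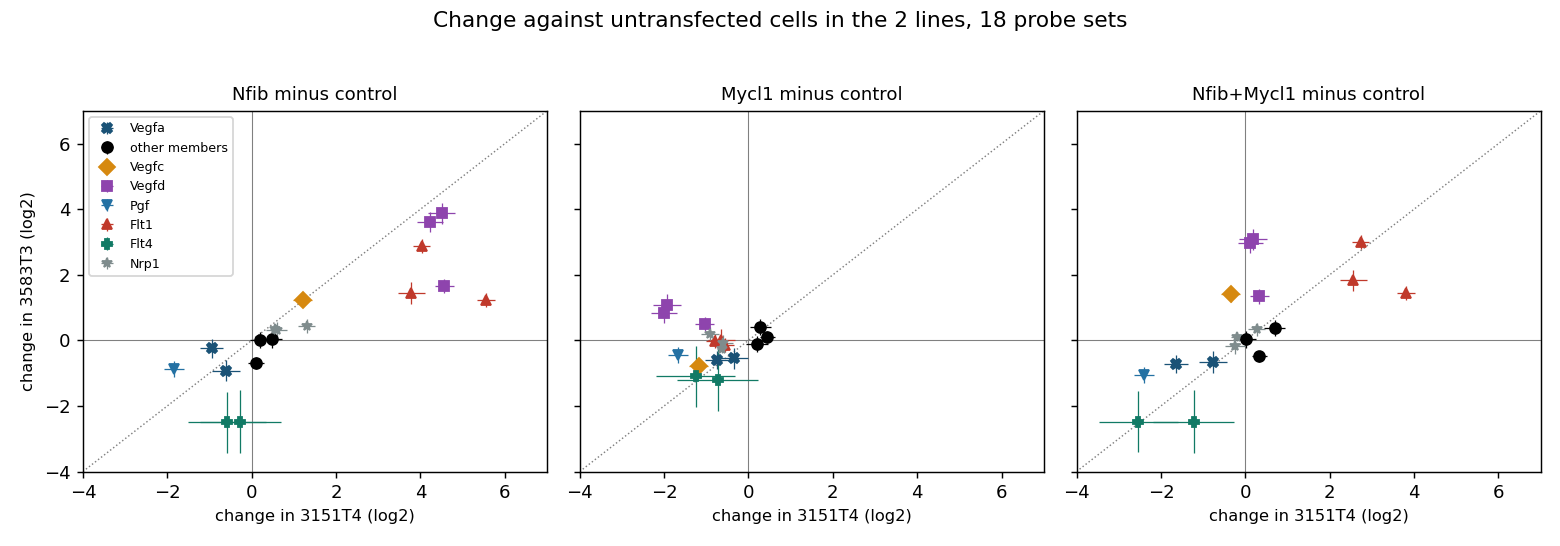
Change of each of the 18 probe sets against control (log2, bars are SE), with 3583T3 on the vertical and 3151T4 on the horizontal axis, for Nfib, Mycl1 and both vectors. The Flt1 points lie right of the dotted line of equal change for Nfib, and the Vegfd points lie above it for Mycl1 and for both vectors.

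Vegfd, a ligand of Flt4 in lymphatic vessels, had the largest rise of the ligands with Nfib. On 1438954_x_at the Nfib arrays had 9.69 and 10.38 in 3583T3 and 10.46 and 10.18 in 3151T4. The control arrays had 5.92 and 6.92 in 3583T3 and 6.22 and 5.95 in 3151T4. All 4 Nfib arrays were thus above every control array in both lines, and the change was 3.92 ± 0.61 (adjusted p = 0.000924). Probe set 1438953_at followed it closely over the 16 arrays (r = 0.99, no test) and rose by 4.19 ± 0.63 (18.3-fold, adjusted p = 0.000752). Within lines, 1438954_x_at rose by 3.61 in 3583T3 (adjusted p = 2.27e-06) and by 4.23 in 3151T4 (adjusted p = 3.85e-07).

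The Mycl1 response of Vegfd differed between the lines. On 1438954_x_at the Mycl1 arrays had 7.27 and 7.26 in 3583T3 and 4.29 and 3.89 in 3151T4. Against the control arrays above, they were higher in 3583T3 and lower in 3151T4, where the fall was 2.00 ± 0.30 on the log2 scale (adjusted p = 0.00104); the 3583T3 change of 0.85 was not called. The difference between these responses was 2.85 ± 0.43 (adjusted p = 0.00355) and, on 1438953_at, 3.00 ± 0.46 (adjusted p = 0.00407). Over both lines the Mycl1 changes of the 3 probe sets were -0.58, -0.43 and -0.26, with adjusted p from 0.551 to 0.817.

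With both vectors, Vegfd stayed high in 3583T3 but was near the control level in 3151T4. The Nfib+Mycl1 arrays had 9.42 and 9.33 in 3583T3 and 6.11 and 6.31 in 3151T4 on 1438954_x_at. Against control this was 2.96 ± 0.30 in 3583T3 (adjusted p = 1.85e-05) and 0.12 in 3151T4 (not called), and the difference between lines was 2.84 ± 0.43 (adjusted p = 0.00124). Over both lines the change of 1.54 ± 0.61 was not called (adjusted p = 0.0673), nor was the 4.33-fold difference from Mycl1 alone (adjusted p = 0.0706). Against Nfib alone, the fall was 2.38 ± 0.61 on 1438954_x_at (adjusted p = 0.0214), 2.56 ± 0.63 on 1438953_at (adjusted p = 0.0199) and 2.27 ± 0.64 on 1449528_at (adjusted p = 0.0295). These 3 calls ended when any 1 of the 4 arrays 3151T4 Nfib replicates 3 and 4 and 3151T4 Nfib+Mycl1 replicates 3 and 4 was left out, with falls between 1.72 and 2.35.

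The third Vegfd probe set, 1449528_at, shared the rise with Nfib but ranked the lines otherwise. The Nfib arrays had 4.41 and 4.51 in 3583T3 and 9.75 and 9.57 in 3151T4. The control arrays had 2.65 and 2.97 in 3583T3 and 5.28 and 4.91 in 3151T4. Its Nfib arrays of 3583T3 were thus below its control arrays of 3151T4, which was not so on the other 2 probe sets. It rose by 1.65 ± 0.22 in 3583T3 (adjusted p = 0.000209) and by 4.57 ± 0.22 in 3151T4 (adjusted p = 7.48e-09), a difference of -2.92 ± 0.31 (adjusted p = 5.72e-05). With Mycl1 its responses also differed between lines (1.55 ± 0.31, adjusted p = 0.0229), a call that ended without 3583T3 control replicate 1 (1.39), 3583T3 Mycl1 replicate 1 (1.51) or 2 (1.58), 3151T4 control replicate 3 (1.36) or 3151T4 Mycl1 replicate 3 (1.32). Over the 16 arrays it correlated with the other 2 probe sets at r = 0.47 (no test), and which transcripts each probe set reads was not tested. In the order of group means, 3151T4 Nfib (10.32) and 3583T3 Nfib (10.03) led and overlapped on 1438954_x_at, and 3151T4 Mycl1 was last (4.09); on 1449528_at 3151T4 Nfib (9.66) led and 3583T3 control was last (2.81).

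Vegfc, the main growth factor of lymphatic vessels, rose with Nfib and fell with Mycl1. On 1419417_at the Nfib arrays had 7.67 and 7.34 in 3583T3 and 10.07 and 9.58 in 3151T4. The Mycl1 arrays had 5.68 and 5.30 in 3583T3 and 7.49 and 7.38 in 3151T4. The control arrays, with 6.43 and 6.10 in 3583T3 and 8.57 and 8.66 in 3151T4, lay between them without overlap in each line. The rise with Nfib was 1.22 ± 0.30 (2.33-fold, adjusted p = 0.0173), nearly equal in the lines at 1.23 in 3583T3 and 1.21 in 3151T4. The change with Mycl1 was -0.98 ± 0.30 (adjusted p = 0.0485).

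With both vectors Vegfc again split the lines. The Nfib+Mycl1 arrays had 7.76 and 7.58 in 3583T3, near the Nfib arrays, and 8.31 and 8.22 in 3151T4, just under the control arrays. The change against control was 1.40 ± 0.22 in 3583T3 (adjusted p = 0.000931) and -0.35 in 3151T4 (not called), and the difference of 1.75 ± 0.31 was called (adjusted p = 0.00406). Against Mycl1 alone Vegfc was 2.83-fold higher with both vectors (adjusted p = 0.0142). In the order of group means, 3151T4 Nfib was highest (9.82) and 3583T3 Mycl1 lowest (5.49), and the neighbours 3583T3 Nfib+Mycl1, 3583T3 Nfib and 3151T4 Mycl1 overlapped.

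The Vegfc calls over both lines were sensitive to single arrays. The Nfib call ended when 3583T3 control replicate 1 (1.18) or 2 (1.06), or else 3151T4 Nfib replicate 3 (1.04), was left out. The Mycl1 call ended without any of 10 arrays, namely all 4 control arrays, all 4 Mycl1 arrays, 3583T3 Nfib replicate 1 or 3151T4 Nfib replicate 4, with changes from -1.14 to -0.86. The call against Mycl1 alone ended without 3583T3 Nfib+Mycl1 replicate 1 (1.25) or 3583T3 Mycl1 replicate 2 (1.41).

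Vegfa, the ligand that drives blood vessel growth, was lower with both vectors than in control cells. On 1420909_at the Nfib+Mycl1 arrays had 8.40 and 8.53 in 3583T3 and 7.53 and 7.37 in 3151T4. The control arrays had 9.34 and 9.04 in 3583T3 and 8.87 and 9.32 in 3151T4, so the groups did not overlap. The fall was 1.18 ± 0.23 on the log2 scale (2.27-fold, adjusted p = 0.00265), with 1.64 ± 0.28 in 3151T4 (adjusted p = 0.00106) and 0.72 in 3583T3 (not called, adjusted p = 0.105).

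Neither Nfib nor Mycl1 alone was called for Vegfa over both lines. The Nfib arrays had 9.19 and 8.71 in 3583T3 and 8.25 and 8.03 in 3151T4 (-0.60 ± 0.23, adjusted p = 0.132), and in 3151T4 alone the fall of 0.95 ± 0.28 was called (adjusted p = 0.0393). That call ended without any of 8 arrays: both 3583T3 control arrays, both 3151T4 control arrays, both 3151T4 Nfib arrays or both 3151T4 Nfib+Mycl1 arrays, each left out alone (-1.17 to -0.72). The Mycl1 arrays had 8.14 and 9.03 in 3583T3 and 8.51 and 8.18 in 3151T4 (-0.68 ± 0.23, adjusted p = 0.0707). The dimmer probe set 1451959_a_at, at 4.51 to 6.42, fell by 0.71 ± 0.23 with both vectors (adjusted p = 0.0318) and had -0.76 ± 0.23 with Nfib (adjusted p = 0.0528). Its Nfib+Mycl1 call ended without 3583T3 control replicate 1 (-0.77) or 2 (-0.62), 3583T3 Nfib+Mycl1 replicate 2 (-0.70), 3151T4 control replicate 3 (-0.67) or 3151T4 Nfib+Mycl1 replicate 3 (-0.59). It was -0.69 with the 2 arrays whose Mycl signal went against their label left out (adjusted p = 0.0518).

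Vegfb, a ligand of Flt1 linked to fatty acid uptake, moved little. On 1451803_a_at the Nfib+Mycl1 arrays had 7.46 and 6.98 in 3583T3 and 6.35 and 6.61 in 3151T4, and the control arrays 6.93 and 6.77 in 3583T3 and 5.85 and 5.70 in 3151T4. All 4 Nfib+Mycl1 arrays were above the control arrays of their line, by 0.54 ± 0.19 (1.45-fold, adjusted p = 0.0405). The Nfib arrays (6.20 to 7.03) and the Mycl1 arrays (5.79 to 7.47) overlapped the control arrays of at least 1 line, with changes of 0.26 and 0.35 that were not called. The Nfib+Mycl1 call ended without any 1 of 7 arrays: each of the 4 control arrays, 3583T3 Nfib+Mycl1 replicate 1, and 3151T4 Nfib+Mycl1 replicates 3 and 4 (0.46 to 0.60). It was also lost with no filter on dim probe sets (adjusted p = 0.0570).

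Pgf, the placenta growth factor and a further Flt1 ligand, was lower with every vector. On 1418471_at the Nfib arrays had 4.13 and 3.88 in 3583T3 and 4.40 and 4.37 in 3151T4. The Mycl1 arrays had 4.43 and 4.45 in 3583T3 and 4.64 and 4.45 in 3151T4, and the Nfib+Mycl1 arrays 3.53 and 4.13 in 3583T3 and 3.57 and 4.06 in 3151T4. The control arrays, with 4.77 and 5.0 in 3583T3 and 6.37 and 6.06 in 3151T4, were above all 12 vector arrays. The changes were -1.36 ± 0.25 with Nfib (adjusted p = 0.00365), -1.06 ± 0.25 with Mycl1 (adjusted p = 0.0251) and -1.73 ± 0.25 with both (adjusted p = 0.000655). All vector arrays were near the filter level of log2 4, so these folds can understate the change.

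The Pgf fall was smaller in 3583T3. It was 1.05 in 3583T3 and 2.40 in 3151T4 with both vectors, a difference of 1.35 ± 0.34 (adjusted p = 0.0356), and 0.88 in 3583T3 and 1.84 in 3151T4 with Nfib, a difference that was not called. The Nfib+Mycl1 difference ended without any of 10 arrays, namely each control array, 3583T3 Nfib+Mycl1 replicate 2, 3151T4 Nfib+Mycl1 replicate 3, both 3151T4 Nfib arrays or both 3151T4 Mycl1 arrays, each alone (1.05 to 1.50). It was 1.05 with the 2 arrays whose Mycl signal went against their label left out (adjusted p = 0.0913). The Mycl1 call over both lines ended without 3151T4 control replicate 3 (-0.84) or 4 (-0.95), or 3151T4 Mycl1 replicate 3 (-1.03) or 4 (-0.96). The leukocyte genes were also higher on control than on vector arrays, but the lines ranked otherwise than for Pgf. Their summed signal in control cells was 13.80 to 14.45 in 3583T3 and 12.86 in 3151T4. With Nfib their median change was -5.91 in 3583T3 and -2.93 in 3151T4. In Nfib+Mycl1 against Mycl1 and against Nfib, where those genes were not called, Pgf had -0.67 and -0.37 and was not called. The part of leukocytes in the Pgf signal was not tested.

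**Figure D2:**
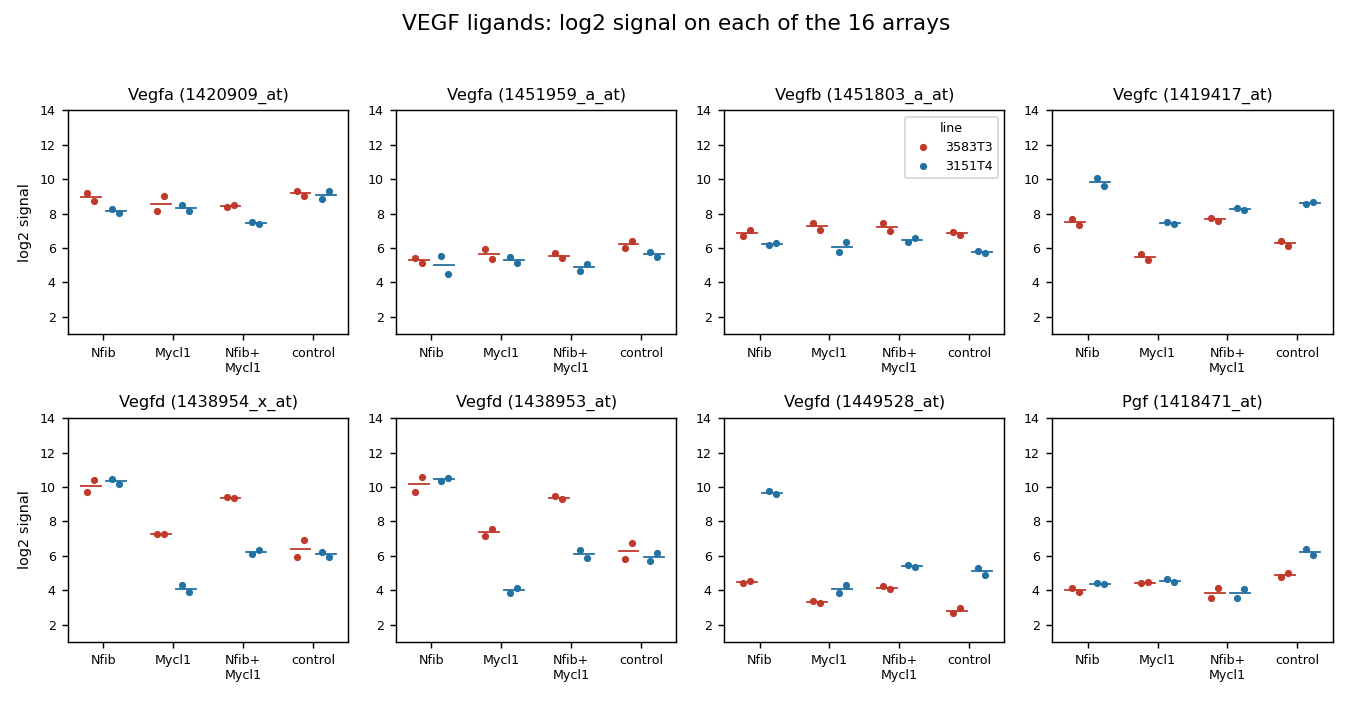
Log2 signal of the 8 ligand probe sets on each array, 3583T3 in red and 3151T4 in blue, with bars at the mean of each pair of arrays. Vegfd is at 9.69 to 10.46 on the Nfib arrays of 1438954_x_at, and the 4 control arrays of Pgf are above all 12 vector arrays.

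Flt1, the VEGF receptor that binds Vegfa, Vegfb and Pgf, was higher on every array with the Nfib vector, with or without Mycl1. On 1451756_at the Nfib arrays had 8.82 and 8.46 in 3583T3 and 11.29 and 11.40 in 3151T4, and the Nfib+Mycl1 arrays 8.74 and 8.76 in 3583T3 and 10.02 and 10.08 in 3151T4. The Mycl1 arrays had 5.78 and 5.68 in 3583T3 and 6.65 and 6.41 in 3151T4. The control arrays had 6.03 and 5.49 in 3583T3 and 7.43 and 7.21 in 3151T4, so the 8 arrays with the Nfib vector were above the 8 without it. The change was 3.45 ± 0.29 with Nfib (adjusted p = 3.27e-06) and 2.86 ± 0.29 with both vectors (adjusted p = 2.56e-05) against control. Against Mycl1 alone, both vectors gave 3.27 ± 0.29 (9.64-fold, adjusted p = 1.66e-05). In that comparison, where 2.96% of all probe sets were called, 0 of 16 leukocyte genes were called. However, 2 of 10 fibroblast genes were higher (median change 0.63), and the part of those was not tested.

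With Mycl1 alone, 1 of the 3 Flt1 probe sets, 1451756_at, was called lower in 3151T4. Over both lines the change was -0.41 ± 0.29 (adjusted p = 0.357); in 3151T4 it was -0.79 ± 0.21 (adjusted p = 0.0235) and in 3583T3 -0.03, and the difference between lines was not called. In 3151T4, 1419300_at had -0.56 (adjusted p = 0.0916) and 1454037_a_at -0.64 (adjusted p = 0.194), which were not called. The 1451756_at call ended without 3151T4 control replicate 3 (-0.68) or 4 (-0.90), or 3151T4 Mycl1 replicate 3 (-0.91) or 4 (-0.67).

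The other 2 Flt1 probe sets rose most in 3151T4. On 1419300_at the Nfib arrays had 5.52 and 5.32 in 3583T3 and 9.99 and 9.90 in 3151T4, and the Nfib+Mycl1 arrays 5.72 and 5.60 in 3583T3 and 8.15 and 8.21 in 3151T4. Its 8 arrays without the Nfib vector were at 3.65 to 4.57, below all 8 with it. The rise with Nfib was 1.22 ± 0.21 in 3583T3 (adjusted p = 0.00212) and 5.56 ± 0.21 in 3151T4 (47.3-fold, adjusted p = 7.02e-10). This difference of -4.35 ± 0.30 was the largest between lines among the members (adjusted p = 1.07e-06), and it was -2.34 ± 0.30 with both vectors (adjusted p = 0.000352).

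For 1454037_a_at and 1451756_at the Nfib response was smaller in 3583T3 by 2.34 ± 0.46 (adjusted p = 0.00736) and 1.15 ± 0.30 (adjusted p = 0.0355). The 1451756_at difference ended without any 1 of 8 arrays (-1.26 to -0.88): 3583T3 control replicate 1, 3583T3 Nfib replicate 2, and replicates 3 and 4 of 3151T4 control, 3151T4 Nfib and 3151T4 Nfib+Mycl1. It was -0.97 with the 2 arrays whose Mycl signal went against their label left out (adjusted p = 0.115). Over both lines 1419300_at rose by 3.39 ± 0.70 with Nfib (adjusted p = 0.00721) and by 2.63 ± 0.70 with both vectors (adjusted p = 0.0133), and 1454037_a_at by 2.61 ± 0.46 (adjusted p = 0.00229) and 2.19 ± 0.46 (adjusted p = 0.00398). The 1454037_a_at calls are no support, since it passed the filter only through arrays with the Nfib vector. The Nfib+Mycl1 call of 1419300_at ended without 3151T4 control replicate 4 (2.27). Its call against Mycl1 alone (2.98 ± 0.70, adjusted p = 0.0345) ended without 3583T3 Nfib+Mycl1 replicate 1 or 2, or 3151T4 Mycl1 or Nfib+Mycl1 replicate 3 or 4 (2.56 to 3.15). The 3 probe sets correlated at r = 0.94 to 0.97 over the 16 arrays (no test), and which of them read the soluble form was not tested.

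In the order of Flt1 levels, every group with the Nfib vector came before every group without it. On 1451756_at the group means ran from 11.34 in 3151T4 Nfib through 10.05 in 3151T4 Nfib+Mycl1, 8.75 in 3583T3 Nfib+Mycl1 and 8.64 in 3583T3 Nfib to 7.32 in 3151T4 control, 6.53 in 3151T4 Mycl1, 5.76 in 3583T3 control and 5.73 in 3583T3 Mycl1. Of these neighbours, the 2 groups of 3583T3 with the Nfib vector overlapped, and so did the last 2.

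Kdr, the receptor that carries most VEGF signals in blood vessel endothelium, was low throughout. On 1449379_at all 16 arrays lay between 3.88 and 5.01. The Nfib arrays had 4.23 and 4.18 in 3583T3 and 4.19 and 3.89 in 3151T4, and the control arrays 4.87 and 4.91 in 3583T3 and 3.88 and 3.99 in 3151T4. In 3583T3 the Nfib arrays were below the control arrays by 0.68 ± 0.18 (adjusted p = 0.0326), in 3151T4 the change was 0.10 (not called), and the difference was not called. Leaving out any of the 4 arrays of 3583T3 Nfib or 3583T3 control ended that call (-0.71 to -0.66), and so did leaving out the 2 arrays whose Mycl signal went against their label (adjusted p = 0.141). Over both lines none of the 5 comparisons of vectors called Kdr, with changes from -0.36 to 0.28.

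Flt4, the receptor of Vegfc and Vegfd, was far higher in 3583T3 than in 3151T4. On 1444052_at the 8 arrays of 3583T3 ranged from 5.35 to 9.91 and the 8 of 3151T4 from 2.23 to 5.16, without overlap. The difference was 4.27 ± 0.49 (19.3-fold, adjusted p = 2.62e-06), and 3.68 ± 0.50 on 1421442_at (adjusted p = 1.39e-05), which followed it at r = 0.99 over the 16 arrays (no test).

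Within 3583T3, Flt4 was spread between replicates of the same label. The Nfib arrays had 9.35 and 5.35, the Mycl1 arrays 8.87 and 8.64, the Nfib+Mycl1 arrays 6.13 and 8.61, and the control arrays 9.78 and 9.91. The 2 low arrays, 3583T3 Nfib replicate 2 and 3583T3 Nfib+Mycl1 replicate 1, were the 2 with an Nfib label and a high Mycl signal (10.22 and 11.05). The endothelial adhesion gene Esam followed the same arrays, with 9.52 and 5.26 with Nfib, 10.41 and 10.43 with Mycl1, 5.54 and 9.17 with both and 11.31 and 11.12 in control cells. Esam was the main part of the summed endothelial signal on the control arrays of this line; that sum was 7.88 to 10.65 on its vector arrays and 11.38 to 11.41 on its control arrays. Of the other endothelial genes in 3583T3, Emcn had 8.47 on control replicate 2 and 6.13 on Mycl1 replicate 2, Eng and Egfl7 were above 4 on all 8 arrays, and 9 genes of the list never exceeded log2 4. The part of endothelial cells in the Flt4 signal was not tested.

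**Figure D3:**
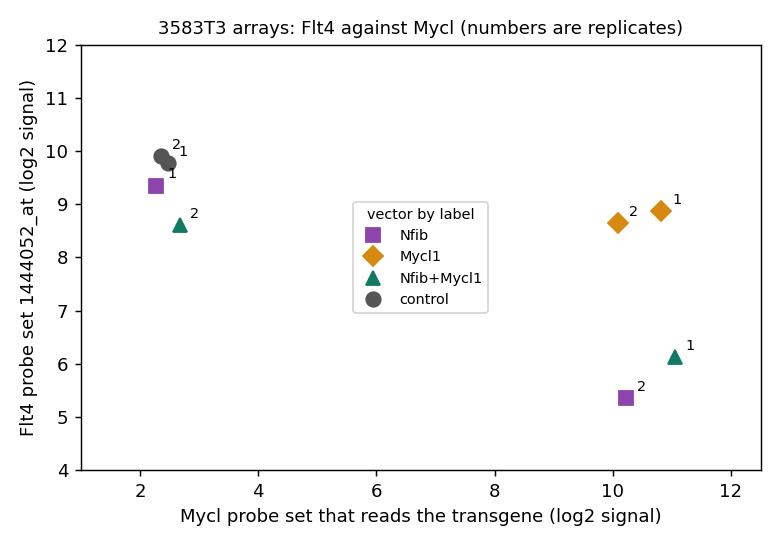
Flt4 signal (1444052_at, log2) against the Mycl probe set that reads the transgene (log2) on the 8 arrays of 3583T3, with symbols for the vector by label and numbers for the replicate. The arrays labelled Nfib replicate 2 and Nfib+Mycl1 replicate 1 lie apart at lower right, with Flt4 at 5.35 and 6.13.

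In 3151T4 Flt4 was low and lowest with both vectors. The 1444052_at arrays had 4.24 and 4.89 with Nfib, 3.93 and 3.87 with Mycl1, 2.23 and 3.00 with both and 5.16 and 5.15 in control cells. Over both lines the change with both vectors was -2.51 ± 0.70 (adjusted p = 0.0157), and -1.54 with Nfib (adjusted p = 0.208) and -1.17 with Mycl1 (adjusted p = 0.273) were not called. On 1421442_at the change with both vectors was -1.85 ± 0.71 (adjusted p = 0.0604). The 1444052_at call ended without 3583T3 Nfib+Mycl1 replicate 1 (-2.14) or 3151T4 Nfib+Mycl1 replicate 3 (-2.28).

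Without the 2 arrays whose Mycl signal went against their label, more Flt4 changes were called. With both vectors against control the 2 probe sets then had -2.96 (adjusted p = 2.11e-05) and -2.26 (adjusted p = 0.00169). With Mycl1 against control 1444052_at had -1.17 (adjusted p = 0.00737), and with both vectors against Mycl1 it had -1.79 (adjusted p = 0.00569). Against Nfib alone, both vectors then gave -2.38 (adjusted p = 0.000331) and -1.78 (adjusted p = 0.0125). With Nfib against control, Flt4 had -0.58 (adjusted p = 0.253) and -0.49 (adjusted p = 0.592) and was still not called.

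Nrp1, co-receptor for VEGF and semaphorin 3A, was called over both lines against control on 1 of its 3 probe sets, 1448944_at, slightly higher with Nfib and slightly lower with Mycl1. The Nfib arrays had 11.88 and 11.77 in 3583T3 and 12.89 and 12.95 in 3151T4. The Mycl1 arrays had 11.12 and 11.32 in 3583T3 and 11.88 and 11.59 in 3151T4. The control arrays, with 11.49 and 11.47 in 3583T3 and 12.30 and 12.43 in 3151T4, lay between them in each line. The changes were small: 0.45 ± 0.12 with Nfib (1.37-fold, adjusted p = 0.0256) and -0.45 ± 0.12 with Mycl1 (adjusted p = 0.0305). With both vectors the arrays had 11.54 and 11.65 in 3583T3 and 12.13 and 12.22 in 3151T4, which was -0.04 against control (not called) and -0.49 ± 0.12 against Nfib alone (adjusted p = 0.0174).

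On 1448943_at the changes of 0.46 with Nfib (adjusted p = 0.180) and -0.35 with Mycl1 (adjusted p = 0.243) were not called, nor was that of -0.35 with Mycl1 on 1418084_at (adjusted p = 0.431). The Nrp1 calls also rested on few arrays. The Nfib call ended without 3583T3 control replicate 1 (0.43) or 2 (0.43), 3151T4 control replicate 3 (0.45), or 3151T4 Nfib replicate 3 (0.40) or 4 (0.38). The Mycl1 call ended without any 1 of 7 arrays, namely every control array and 3583T3 Mycl1 replicate 1 and 3151T4 Mycl1 replicates 3 and 4 (-0.47 to -0.35). The call against Nfib alone ended without 3151T4 Nfib replicate 3 (-0.44) or 4 (-0.42), or 3151T4 Nfib+Mycl1 replicate 3 (-0.44). On 1448943_at the fall against Nfib alone was 0.66 ± 0.20 (adjusted p = 0.0360), and it ended without any array of Nfib or Nfib+Mycl1 but 3583T3 Nfib replicate 2 (-0.70 to -0.59).

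The dimmer Nrp1 probe set 1418084_at changed in 3151T4. Its arrays there had 10.86 and 10.62 with Nfib, 8.57 and 8.48 with Mycl1, 9.84 and 9.57 with both and 9.61 and 9.26 in control cells. It rose by 1.30 ± 0.20 with Nfib (adjusted p = 0.000591) and fell by 0.91 ± 0.20 with Mycl1 (adjusted p = 0.0101), with no overlap between those 3 groups. The Mycl1 call ended without 3151T4 control replicate 3 (-0.74) or 3151T4 Mycl1 replicate 4 (-0.86). In 3583T3 all 8 arrays lay between 8.16 and 8.84, with no call. Over both lines the Nfib change of 0.87 ± 0.29 was not called (adjusted p = 0.0764), and without the 2 arrays whose Mycl signal went against their label it was 1.12 (adjusted p = 0.0239).

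Nrp2, co-receptor for Vegfc and semaphorin 3F, differed between lines and not between vectors. On 1426528_at the 8 arrays of 3583T3 lay between 6.35 and 7.10 and the 8 of 3151T4 between 8.73 and 9.11. The difference was -2.22 ± 0.13 (adjusted p = 8.99e-10). The Nfib arrays had 6.37 and 7.04 in 3583T3 and 8.90 and 9.11 in 3151T4, and the control arrays 6.72 and 6.66 in 3583T3 and 8.80 and 8.79 in 3151T4. The changes against control were 0.11 ± 0.18 with Nfib, 0.05 ± 0.18 with Mycl1 and 0.02 ± 0.18 with both vectors, none of them called.

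**Figure D4:**
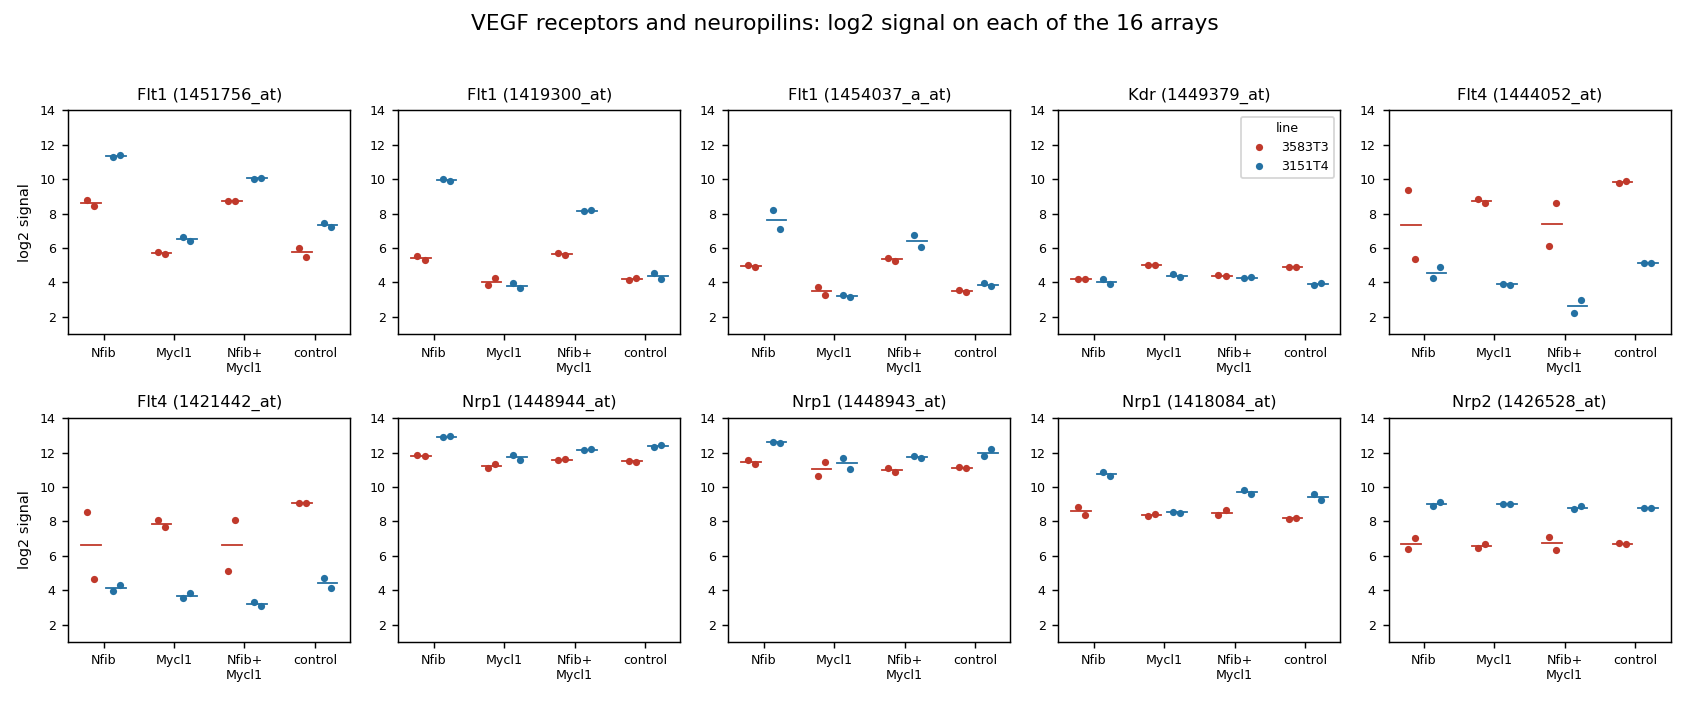
Log2 signal of the 10 receptor and co-receptor probe sets on each array, 3583T3 in red and 3151T4 in blue, with bars at the mean of each pair of arrays. The 8 arrays with the Nfib vector are above the other 8 for Flt1 on 1451756_at, Flt4 is spread within 3583T3, and Nrp2 separates the lines alone.

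Genes around the family were read through lists of known partners, with 1 probe set per gene. Against control, 8.46% of all probe sets were called with Nfib, 9.96% with Mycl1 and 29.0% with both vectors. With both vectors it was 2.96% against Mycl1 alone and 15.3% against Nfib alone, and the shares within lines are given above. List counts near these shares are no result about a list. Among class 3 semaphorins and plexins, the neuropilins' other ligands and their partners, 0 of 8 rose and 2 fell with Nfib against control (Sema3b -0.86 and Sema3c -1.07), with a median change of -0.04 against 0.02 for all probe sets. With Mycl1, 0 of 8 were called (limma), with a median of -0.40. With both vectors 1 rose (Plxna3, 0.62) and 3 fell (Sema3a -0.75, Sema3b -0.87 and Plxnd1 -1.03), with a median of -0.38. Against Mycl1 alone, 2 plexins were higher with both vectors (Plxna2 0.90 and Plxna3 0.91).

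Genes of VEGF receptor signalling were called against control at shares near or under those of all probe sets. Of 20 tested, 0 rose and 2 fell with Nfib against control: Hspb1, a small heat shock protein phosphorylated downstream of Kdr (-1.46 ± 0.25, adjusted p = 0.00172), and Ptprb, an endothelial phosphatase (-1.11 ± 0.23, adjusted p = 0.00748). With Mycl1 0 of 20 were called, and with both vectors 0 rose and 4 fell, among them Src (-0.81), Hspb1 (-0.70) and Ptprb (-0.87). Against Nfib alone, 3 were higher with both vectors (Akt1 0.51, Map2k2 0.52 and Hspb1 0.76) and 1 was lower (Pxn -0.59). The median changes were -0.08 with Nfib, -0.04 with Mycl1 and -0.11 with both vectors, against 0.02, 0.04 and 0.04 for all probe sets.

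Other angiogenic ligands and receptors moved singly. With Nfib, 2 of 20 rose and 1 fell against control: Apln, the peptide ligand apelin (2.38 ± 0.27, adjusted p = 8.02e-05), Pdgfra, a platelet-derived growth factor receptor and also a fibroblast marker (2.22 ± 0.46, adjusted p = 0.00746), and Pdgfb (-1.70 ± 0.26, adjusted p = 0.00093). With Mycl1 0 rose and 1 fell (Pdgfra, -1.63). With both vectors Apln rose by 1.71, while Fgf1 (-2.06), Pdgfa (-0.45) and Pdgfb (-0.78) fell. Against Mycl1 alone, both vectors gave more Pdgfra (2.10) and less Pdgfb (-1.04). The list's median change was 0.25 with Nfib, -0.07 with Mycl1 and 0.00 with both vectors against control. With both vectors 5 were higher and 2 lower in 3583T3 (median 0.35), and 1 was higher and 6 lower in 3151T4 (-0.40). The test of that difference between lines called 2 higher and 1 lower, with a median of 1.09.

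Few angiogenesis inhibitors and genes that sequester or process VEGF were called against control over both lines, and those few were lower. Of all probe sets, 8.46% were called with Nfib and 9.96% with Mycl1, so these counts are no result about the list. With Nfib, 0 of 14 rose and 2 fell: Col18a1, which encodes the precursor of endostatin (-1.15), and the matricellular gene Ccn2 (-0.81 ± 0.14, adjusted p = 0.00218). With Mycl1, 0 rose and 2 fell: the inhibitor Thbs1 (-0.60) and the protease gene Mmp9 (-1.05). With both vectors 0 rose and 4 fell: Thbs1 (-0.54), Col18a1 (-0.97), Mmp9 (-1.28) and Mmp14 (-0.78); 29.0% of all probe sets were called in that comparison, near the share in this list. Within lines there were rises too: Nfib gave 2 higher and 0 lower in 3583T3 and 2 higher and 4 lower in 3151T4, Mycl1 gave 0 higher and 6 lower in 3151T4 and 0 calls in 3583T3 (limma), and both vectors gave 3 higher and 0 lower in 3583T3 and 0 higher and 6 lower in 3151T4. The list medians over both lines were -0.07, -0.34 and -0.15 in these comparisons.

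Hypoxia drives Vegfa in many tissues, so its genes were set beside the family. Of 6 hypoxia sensing factors, 1 rose with Nfib (Egln3, a prolyl hydroxylase, 1.73 ± 0.37, adjusted p = 0.00894), 0 were called with Mycl1 and 1 rose with both vectors (Egln3, 1.41). Of 17 hypoxia-induced genes, 4 rose with Nfib, among them Bnip3 (0.56), Ndrg1 (0.56) and Pdk1 (0.71), and 1 fell (Hk2, -0.93); the median change was 0.16. With Mycl1, 0 rose and 2 fell (Bnip3 -0.35 and P4ha1 -0.73). With both vectors 5 rose, among them Ldha (0.70), Ndrg1 (0.57) and Ddit4 (0.52), and 1 fell (Slc2a1, -0.32), with a median of 0.20. Vegfa itself was not higher in any of these 3 comparisons.

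Genes of fibroblasts, a cell type that plated tumours can hold, were also higher with Nfib. All 10 exceeded log2 4, and their summed signal was 13.51 to 15.46 on vector arrays and 13.55 to 14.86 on control arrays. With Nfib 5 of 10 were higher than in control (median change 1.68), with Mycl1 2 were lower (-0.08), and with both vectors 1 was higher (0.58). The lines differed here as well: with Mycl1, 2 were higher and 0 lower in 3583T3, and 0 higher and 4 lower in 3151T4. With both vectors, 5 were higher and 0 lower in 3583T3 (median 1.07), and 1 was higher and 1 lower in 3151T4 (-0.04). Their summed signal with both vectors was 14.54 to 14.59 in 3583T3 and 14.50 to 14.78 in 3151T4, against control arrays at 13.55 to 13.90 in 3583T3 and 14.86 in 3151T4. Against Mycl1 alone 2 were higher with both vectors (0.63), and against Nfib alone 1 was lower (-0.67). Their part in the Vegfd, Vegfc and Flt1 changes, and in the differences between lines, was not tested.

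**Figure D5:**
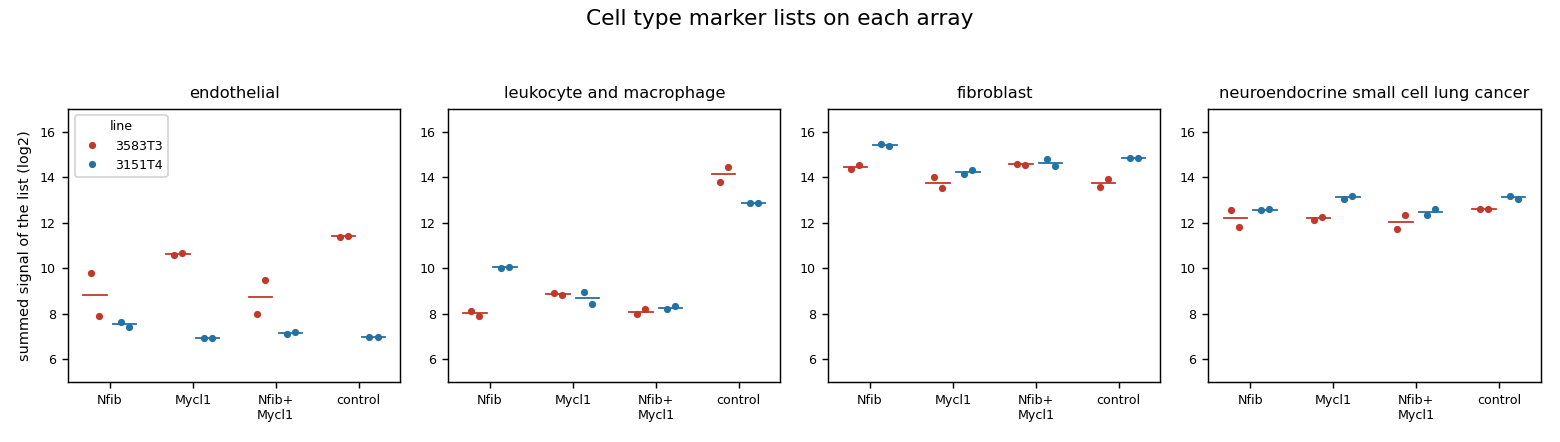
Summed log2 signal of 4 lists of cell type markers on each array, 3583T3 in red and 3151T4 in blue, with bars at the mean of each pair of arrays. The leukocyte list is at 12.86 to 14.45 on the control arrays and at 7.88 to 10.03 on the vector arrays. The endothelial list is at 7.88 to 11.41 in 3583T3, where Esam is its main part on the control arrays, and at 6.93 to 7.63 in 3151T4.

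The genes whose signal over the 16 arrays was most like each member's are given with Pearson's r, as a description with no test, since all share arrays, lines and vectors. For the ligands they were Rnf11 (0.95), Sgms1 (0.93) and Crim1 (0.92) for Vegfa, and Carm1 (0.96), Jmjd8 (0.95) and Yipf2 (0.94) for Vegfb. Vegfc was nearest to Nsg1 (0.97), Bnip3 (0.96) and Phyhipl (0.96), Vegfd to Ccn5 (0.97), Fgf7 (0.94) and Pdlim4 (0.93), and Pgf to Slco1a5 (0.93), Syn1 (0.93) and Dmtn (0.92). For the receptors they were Edar (0.97), Hopx (0.95) and Selenbp1 (0.95) for Flt1, Sdcbp2 (0.92), Ezh2 (0.91) and Tnfaip3 (0.90) for Kdr, and Ubap1 (0.99), Nectin2 (0.98) and Gcnt1 (0.98) for Flt4. Nrp1 was nearest to Casp12 (0.97), Gng11 (0.97) and Btd (0.97), and Nrp2 to En2 (0.99), Commd6 (0.99) and Nova1 (0.99).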

How the data were processed

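Total RNA (100 ng, Trizol) was amplified with NuGEN Ovation V2, labelled with biotin and hybridised to Affymetrix arrays, per the labels' protocols. The log2 signals that the authors deposited were made with GCRMA, since the submitters' processing notes name it (2.20.0) and R (2.11.0). Neither the notes nor the file states the scale of the deposited signals; log2 was read from their range and from what GCRMA usually gives. No further normalization was applied. Of 22690 probe sets, 64 controls were left out; 20380 of the others had 1 gene symbol, 691 several and 1555 none, and names come only from those with 1 symbol.

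Groups and replicate numbers came from the titles. Probe sets above log2 4 on at least 2 arrays (15799, of 8777 genes) entered limma (3.58.1, under R 4.3.3), with lmFit and then eBayes with a mean-variance trend. Comparisons of vectors, and of lines, came from an additive model of vector and line over all 16 arrays (11 residual degrees of freedom). For changes within a line, and for their differences, each of the 8 groups had its own mean, which left 8 residual degrees of freedom. Tests were two-sided, adjusted by the Benjamini-Hochberg method over all 15799 probe sets, and called under 0.05. They were also run on simulated data with independent noise and additive line differences. That run cannot show errors from replicates that are not independent, from responses that differ between lines, or from wrong labels.

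The members, the lists and the alternatives were chosen with earlier results of these data known, so no result here is independent support for them. Named genes were every member probe set, up to 4 called genes with the largest change per list and comparison of vectors, and the 3 genes with the highest correlation with a member whose group means span at least 1. Markers, Nfib, Mycl and Mycn were added where a result touches them. The alternatives were no filter, a filter at log2 6, quantile normalization repeated, arrays centred on their medians, 1 probe set per gene, no trend, array weights, a replicate block, averaged replicates, only the 2 conditions compared, and leaving out each array or the 2 arrays whose Mycl signal went against their label. Lists used the probe set with the highest mean per gene. The number of arrays limits the precision. Promoters are RefSeq's (GRCm38.p6); proteins were not used here.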

Additional observations from a re-analysis of the deposited data

Results flagged for a closer look

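For each of the 18 probe sets, the 4 arrays of each of the 4 conditions were put to Dixon's test. In these groups, 2 values stood apart from the other 3, which chance does in about 1 of 20 groups of like arrays. The groups here pool 2 lines that differed in every probe set, so that rate does not hold for them. Pgf had 4.64 on the array 3151T4 Mycl1 replicate 3 and 4.43 to 4.45 on the other Mycl1 arrays (ratio 0.885), a gap of little size. Flt4 on 1421442_at had 8.54 on the array 3583T3 Nfib replicate 1 and 3.98 to 4.67 on the other Nfib arrays (ratio 0.849); 2 of those are of 3151T4, where this probe set was at 3.08 to 4.70 on all 8 arrays, and the control and Mycl1 arrays of 3583T3 had 7.65 to 9.09. The other, 3583T3 Nfib replicate 2, is the array whose Mycl signal went against its label.

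Responses differed between lines, 3583T3 minus 3151T4, for 12 tests in the model with 8 means. With Nfib these were Flt1 on 1419300_at (-4.35), 1454037_a_at (-2.34) and 1451756_at (-1.15), and Vegfd on 1449528_at (-2.92). With Mycl1 they were Vegfd on 1438953_at (3.00), 1438954_x_at (2.85) and 1449528_at (1.55). With both vectors they were Vegfd on 1438953_at (2.90) and 1438954_x_at (2.84), Vegfc (1.75), Pgf (1.35) and Flt1 on 1419300_at (-2.34).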

How the results depend on the processing

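No called change turned its sign under the alternatives run. Of all changes recomputed for single probe sets, 6547 kept their side of the threshold, 224 lost a call, 99 gained it, and 87 that were not called either way turned their sign. Leaving out each array in turn gave 7 to 10 called members with Nfib against control, 0 to 4 with Mycl1, 5 to 9 with both, 2 to 5 against Mycl1, 0 to 8 against Nfib and 17 to 18 between lines. Within 3583T3 it gave 6 to 10 with Nfib, 0 to 0 with Mycl1 and 7 to 10 with both; within 3151T4, 9 to 11, 5 to 10 and 5 to 7; for differences of response, 3 to 7, 2 to 3 and 4 to 5. With Mycl1 against control the count was 0 without 3151T4 control or 3151T4 Mycl1 replicate 3 or 4, and 4 to 5 members then had an unadjusted p under 0.05 (limma). Against Nfib alone it was 0 without 3151T4 Nfib replicate 3 or 4 or 3151T4 Nfib+Mycl1 replicate 3 (5 to 6 unadjusted), 1 without 3151T4 Nfib+Mycl1 replicate 4 and 8 without 3583T3 Nfib replicate 2. The count was 1 with Mycl1 without 3583T3 control replicate 1 or 2 or 3583T3 Mycl1 replicate 1, 5 with both without 3151T4 Nfib+Mycl1 replicate 3, 2 against Mycl1 without 3583T3 Nfib+Mycl1 replicate 1 and 7 for the Nfib difference without 3583T3 Nfib replicate 1. With Mycl1 in 3151T4 it was 5 without 3151T4 control replicate 3 or 3151T4 Mycl1 replicate 4.

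With 1 probe set per gene there are 10 members, and the calls were 5 with Nfib, 5 with both, 2 against Mycl1, 2 against Nfib and 10 between lines; 5 with Nfib and 4 with both in 3583T3; 6 with Nfib and 5 with Mycl1 in 3151T4; and 1, 1 and 3 for the differences of response. With replicates averaged (8 values) limma called 0 with Nfib (13 with an unadjusted p under 0.05, smallest adjusted p 0.0697), 0 with Mycl1 (3), 1 with both, 0 against Mycl1 (6), 0 against Nfib (4) and 10 between lines; fewer samples enter there. With only the arrays of the 2 conditions compared, calls were 6 with Mycl1, 7 against Mycl1 and 2 with Mycl1 in 3583T3, and array weights gave 10 against Nfib. Without the 2 arrays whose Mycl signal went against their label, 10 were called against Nfib, 4 with Mycl1 in 3583T3 and 5 for the Mycl1 difference. The cause of these moves was not tested.

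The replicate numbers were not taken as pairs in the main fits. The 12 correlations of deviations ran from -0.72 to 0.29, with 5 over 0.1. The lowest was between 3583T3 Nfib and 3583T3 Nfib+Mycl1, which hold the 2 arrays whose Mycl signal went against their label. Within 3151T4 they ran from -0.07 to 0.29, so this check does not settle whether the replicates were paired. With the replicate number as a block, 0 members were called with Mycl1 (4 unadjusted, smallest adjusted p 0.0501) and 3 against Nfib. Nrp1 on 1448944_at with Nfib (adjusted p = 0.0528), Vegfb with both (0.0510) and Flt1 on 1419300_at against Mycl1 (0.0744) also lost their call under the block, as did, within lines, Vegfa with Nfib (0.0760) and Vegfb with both (0.0566) in 3151T4, and Pgf (0.0678) and Kdr (0.0573) with Nfib in 3583T3. So did the line differences of Pgf with both (0.0664) and of Vegfd on 1449528_at with Mycl1 (0.0582), and against Nfib alone Nrp1 on 1448943_at (0.0610) and Vegfd on 1449528_at (0.0544). Vegfc with Mycl1 lost its call with no filter (adjusted p = 0.0657) and without the trend (0.0520). Vegfa on 1451959_a_at with Nfib gained a call under a second quantile normalization (0.0322) and under median centring (0.0321).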
